A study of Rattus norvegicus with 9 samples.

Results

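MicroRNAs (miRNAs) of the imprinted Dlk1-Dio3 locus were followed across the wall of the rat left ventricle, with miR-410 as the reference. Members were all rat reads annotated to 10 miRNA names: mir-410, mir-127, mir-136, mir-434, mir-379, mir-411, mir-495, mir-487b, mir-382 and mir-541. They came to 207 of 46358 annotated sequences and 4112 of 7631327 annotated reads, and each of the 10 names had reads. miR-410 was chosen by its measured levels, which were higher in epicardium than in endocardium. Its values in comparisons with either of those layers are therefore a description and carry no test. The other 9 names were added for their place in the same locus, but with earlier results of these data known. Counts over them are therefore not independent of the data.

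Small RNA was sequenced from epicardium, midmyocardium and endocardium of the left ventricular free wall of 3 male Sprague-Dawley rats aged 8 months (hearts 6, 7 and 8). No treatment is named for the animals. Each heart gave 1 library per layer, so there were 9 libraries and the 3 layers of a heart came from the same animal. The layers were cut from the wall by depth, so each piece holds every cell type of that depth. Levels are reads scaled to 1000000 annotated reads of the library (RPMM).

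The locus lies between the protein-coding genes Dlk1 and Dio3. In mammals its many miRNAs are made from long non-coding transcripts of the maternally inherited chromosome. They are best known from the embryo, placenta and brain, and in many tissues they fall after birth. miR-127, miR-434 and miR-136 sit opposite the retrotransposon-like gene Rtl1, and are known to direct the cleavage of the Rtl1 message made from the paternal chromosome. miR-410 is the last hairpin of the large distal cluster that starts with miR-379. Forced expression of miR-410 or miR-495 is known to promote the proliferation of neonatal cardiomyocytes.

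The strands below carried most of the reads of the 6 members with enough reads to compare. They are shown because the seed, nucleotides (nts) 2 to 8, sets which messages a miRNA recognises. Capitals mark the seed.
miR-410-3p: aATATAACacagatggcctgt
miR-127-3p: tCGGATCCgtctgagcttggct
miR-434-3p: tTTGAACCatcactcgactcct
miR-136-3p: cATCATCGtctcaaatgagtct
miR-411-5p: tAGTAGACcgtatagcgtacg
miR-541-5p: aAGGGATTctgatgttggtcacact
These 6 seeds were all different, so the members shared a locus and not a seed family. Sequences and positions are those of RefSeq on the GRCr8 assembly, plus strand. miR-127-3p lies at chr6:134328510-134328531, miR-434-3p at chr6:134330451-134330472 and miR-136-3p at chr6:134331383-134331404, all within the span of Rtl1. miR-411-5p lies at chr6:134544604-134544624, within the long non-coding RNA gene LOC102555254. miR-541-5p at chr6:134578434-134578458 and miR-410-3p at chr6:134579808-134579828 both lie within the long non-coding RNA gene LOC120103623.

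The 3 hairpins of the Rtl1 group spanned 2.96 kb and the 7 distal hairpins 36.4 kb, with 212 kb between the groups. Reads were spread very unevenly over these hairpins. miR-127 alone gave 54.1% of the 4112 reads and miR-434 27.3%. miR-410 gave 7.42%, miR-411 5.50%, miR-541 2.63% and miR-136 1.87%. The other 4 distal members were close to the limit of detection, with 20 reads of miR-487b, 13 of miR-379, 13 of miR-382 and 3 of miR-495 in the 9 libraries together.

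**Figure D1:**
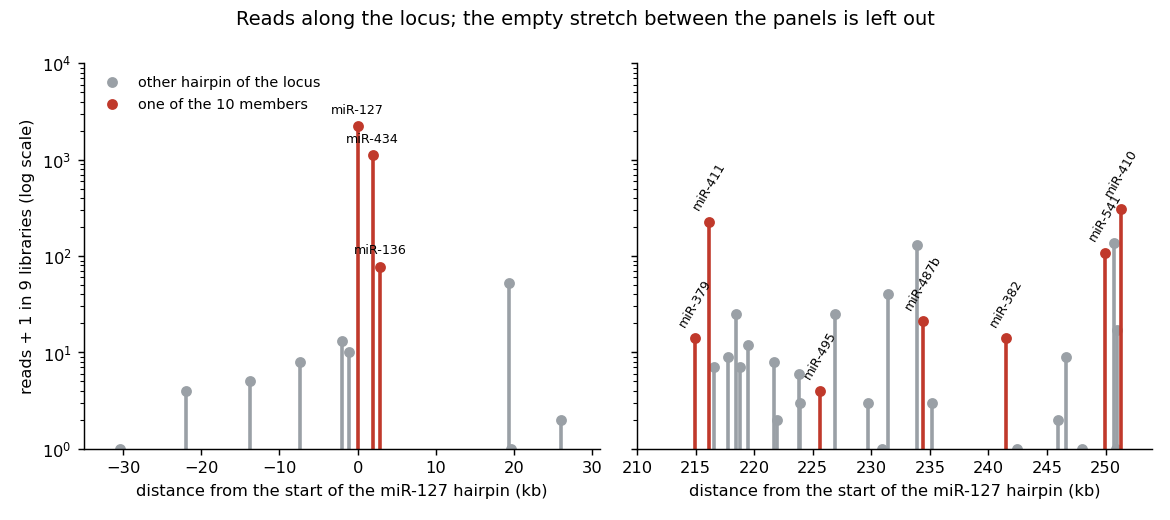
Reads of each hairpin of the locus over the 9 libraries (log scale, 1 added) against its distance in kb from the start of the miR-127 hairpin, with the 10 members in red and other hairpins of the locus in grey. miR-127 with 2225 reads and miR-434 with 1122 stand above all others, and miR-410 with 305 is the highest of the distal hairpins.

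Libraries held 283991 to 1428025 annotated reads, of which 119 to 735 belonged to the members. The smallest level that 3 reads can show ran from 2.10 RPMM in endocardium of heart 7 to 10.6 RPMM in midmyocardium of heart 6, the shallowest library. Cardiomyocyte miRNAs were abundant in every library. The 7 names of that marker list, of which miR-208a had no reads, summed to at least 54340 RPMM. A feature was 1 annotated name and strand, and 573 features of any species that reached 10 reads in any 1 library entered the fits. Of the members, 6 features passed this filter: the main strands of miR-127, miR-434, miR-410, miR-411 and miR-541, and the strand of miR-136 that the annotation calls miR-136*. The filter asks for reads in a single library, so these 6 do not stand for all members.

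In epicardium of hearts 6, 7 and 8, miR-410 (mir-410 in the annotation) measured 64.9, 70.1 and 59.0 RPMM. In midmyocardium it measured 14.1, 37.2 and 28.5 RPMM in the same order, and in endocardium 18.3, 32.2 and 17.1. All 3 epicardial libraries lay above all 6 others, and midmyocardium and endocardium overlapped. The layer means were 64.7 ± 5.52 RPMM (SD, n = 3) in epicardium, 26.6 ± 11.7 in midmyocardium and 22.5 ± 8.41 in endocardium, resting on 170, 62 and 72 reads. The epicardial mean was 2.87 times the endocardial mean and 2.43 times the midmyocardial mean. Whether more cells that make the miRNA or more of it per cell lies behind a level cannot be told apart in pieces of tissue.

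miR-127 (mir-127), which targets Rtl1, measured 350, 335 and 401 RPMM in epicardium of hearts 6, 7 and 8. In midmyocardium it measured 225, 232 and 240 RPMM, and in endocardium 197, 266 and 280. As for miR-410, each epicardial library was above each of the other 6. The means were 362 ± 34.9 RPMM in epicardium, 233 ± 7.50 in midmyocardium and 248 ± 44.6 in endocardium (SD, n = 3), so the epicardial mean was 1.46 times the endocardial one. The difference of endocardium from epicardium was -0.56 on the log2(RPMM + 1) scale (SE 0.25), with an adjusted p of 0.996 by limma.

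miR-434, from the same stretch opposite Rtl1, measured 178, 228 and 149 RPMM in epicardium of hearts 6, 7 and 8. In midmyocardium the values were 123, 66.4 and 129 RPMM, and in endocardium 135, 151 and 96.0. Epicardium was the highest layer in each heart, but endocardium of heart 7 lay above epicardium of heart 8. The epicardial mean of 185 ± 40.1 RPMM was 1.45 times the endocardial mean of 127 ± 28.4. The log2 difference was -0.54 (SE 0.35, adjusted p = 0.996 by limma).

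The strand miR-136-3p (mir-136*), the third of the Rtl1 group, was read from 7.45 to 11.8 RPMM in epicardium, from 7.04 to 13.3 in midmyocardium and from 5.60 to 8.43 in endocardium. The 3 layers overlapped, and epicardium was above endocardium in 2 of 3 hearts. The log2 difference of endocardium from epicardium was -0.46 (SE 0.32, adjusted p = 0.996 by limma).

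Among the distal members, miR-411 measured 29.8, 37.6 and 40.8 RPMM in epicardium of hearts 6, 7 and 8. In midmyocardium it measured 21.1, 25.2 and 19.9 RPMM, and in endocardium 16.9, 25.2 and 30.3. Epicardium was the highest layer in each heart, and endocardium of heart 8 reached just above epicardium of heart 6. The epicardial mean of 36.1 ± 5.66 RPMM was 1.50 times the endocardial mean of 24.1 ± 6.76, a log2 difference of -0.59 (SE 0.29, adjusted p = 0.996 by limma).

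miR-541, whose hairpin lies next to that of miR-410 among the members, ran from 10.6 to 18.2 RPMM in epicardium, from 3.52 to 11.9 in midmyocardium and from 5.62 to 11.2 in endocardium. Epicardium was above endocardium in each heart, though the layers overlapped. The epicardial mean was 1.48 times the endocardial mean, and the log2 difference was -0.54 (SE 0.45, adjusted p = 0.996 by limma). This feature rests on 84 reads, and a further 24 reads of the same arm had been filed as precursor.

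**Figure D2:**
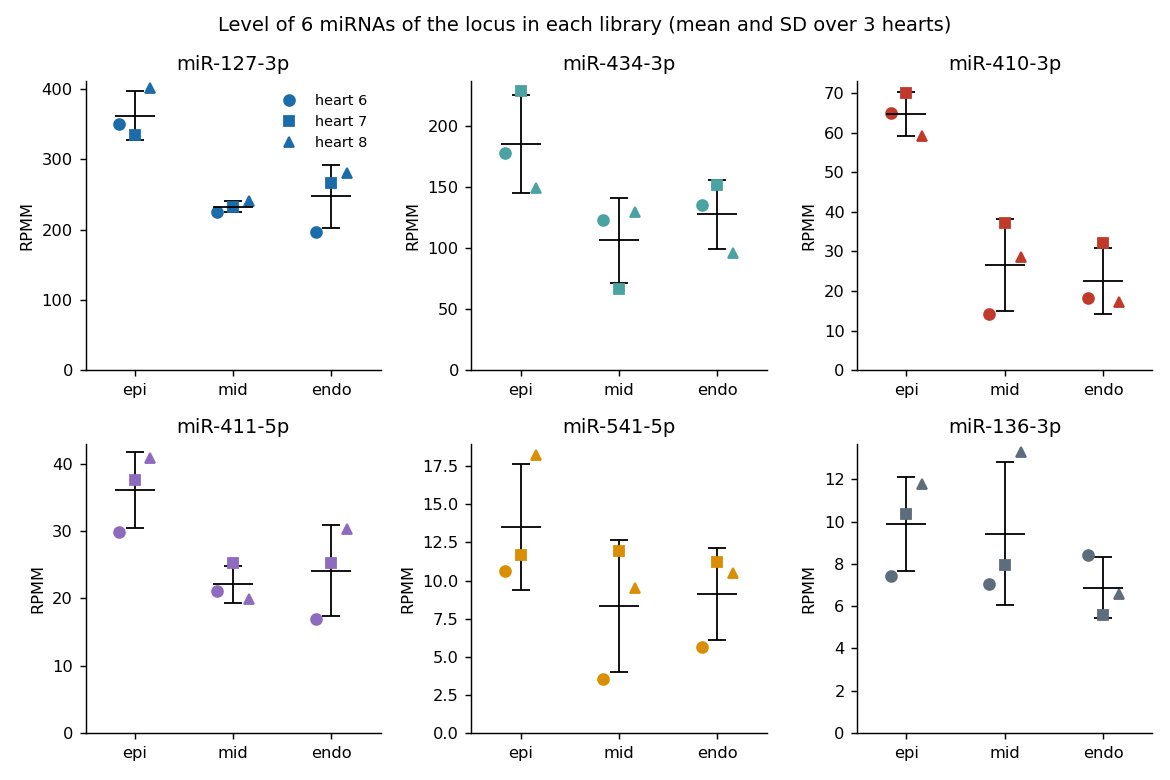
Level in RPMM of the 6 members with enough reads, in each library by layer (epi, mid, endo), with hearts 6, 7 and 8 as circles, squares and triangles and the mean with SD as black bars. For miR-410-3p and miR-127-3p the 3 epicardial libraries lie above the 6 others, and for each member midmyocardium and endocardium overlap.

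Apart from miR-410, which was chosen for this difference, 4 of the other 5 features were higher in epicardium than in endocardium in each of the 3 hearts. Over all 573 features this pattern was seen in 12.6%. The libraries of both layers did not overlap for 1 of the 5, miR-127, against 3.84% of all features. The 6 features come from the same libraries, so they are not replicates of each other. Endocardium minus epicardium ran from -1.53 for miR-410 to -0.46 for miR-136*, with a median of -0.55 against -0.01 over all features. miR-410 was the 7th most negative of the 573, and the other 5 ranked from 66 to 97. The other 5 lay close to each other, between -0.59 and -0.46, and no test was made of miR-410 against them.

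None of the 573 features passed an adjusted p of 0.05 in this comparison by limma (0% called, and 18 or 3.14% at an unadjusted p under 0.05). edgeR's quasi-likelihood test and DESeq2 also called 0. At an unadjusted p under 0.05 there were 0 of the other 5 members, and the tests made for them do not show a difference between endocardium and epicardium. Their 95% intervals, such as -1.13 to 0.01 for miR-127 and -1.25 to 0.07 for miR-411, hold 0.

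Midmyocardium was compared with epicardium in the same fit, and shares the epicardial libraries with the comparison above. The log2 differences were -1.35 for miR-410, -0.83 for miR-434 (SE 0.35), -0.74 for miR-541 (SE 0.45), -0.68 for miR-411 (SE 0.29) and -0.63 for miR-127 (SE 0.25). miR-136* was near level, at -0.09 (SE 0.32). The adjusted p was 0.969 for miR-434, miR-541, miR-411 and miR-127 and 0.999 for miR-136* (limma). All 573 features were short of the threshold (0%), with 18 (3.14%) at an unadjusted p under 0.05 and 0 called by edgeR or DESeq2. Apart from miR-410, chosen on the epicardial libraries, 3 of the other 5 members had an unadjusted p under 0.05 (miR-127, miR-434 and miR-411) and none passed after adjustment. For these 3 epicardium lay above midmyocardium without overlap, against 5.58% of all features, and was higher in each heart, against 14.7%.

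Midmyocardium and endocardium gave similar values for most members. The log2 difference of midmyocardium from endocardium was 0.18 for miR-410, given as a description, -0.07 for miR-127 (95% interval -0.64 to 0.50), -0.29 for miR-434 (-1.08 to 0.49) and -0.09 for miR-411 (-0.75 to 0.57). It was -0.20 for miR-541 (-1.20 to 0.80) and 0.38 for miR-136* (-0.34 to 1.09). Neither layer led in all 3 hearts for any of the 6 features. Over all features, 16.1% were higher in midmyocardium in each heart and 15.4% lower. limma called 0 of 573 (0%), with 27 (4.71%) at an unadjusted p under 0.05 and no member among them, and edgeR and DESeq2 called 0.

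**Figure D3:**
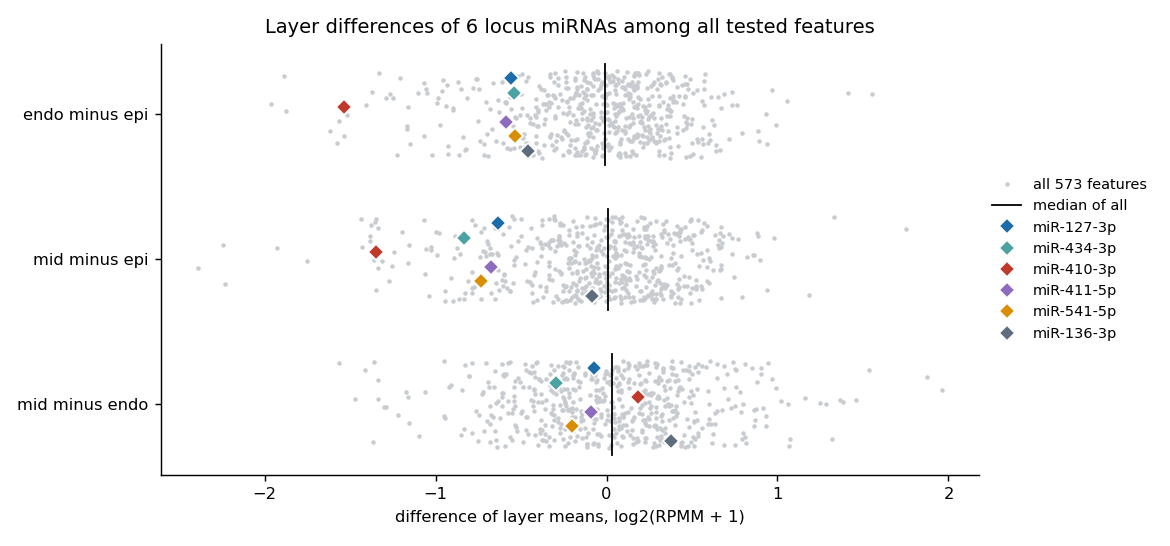
Differences between layer means on the log2(RPMM + 1) scale for all 573 features (grey points, with their median as a black line) and for 6 members (diamonds), in 3 comparisons. In both comparisons with epicardium the 6 members lie left of the median, miR-410 farthest at -1.53 and -1.35, and in midmyocardium minus endocardium they lie on both sides of it.

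The 10 names together summed to 660, 722 and 709 RPMM in epicardium of hearts 6, 7 and 8, to 419, 404 and 464 in midmyocardium and to 395, 515 and 458 in endocardium. The epicardial sum was the highest in each heart, and its mean of 697 ± 32.7 RPMM was 1.53 times the endocardial mean of 456 ± 59.9. Without miR-410 the ratio was 1.46, and without miR-127 it was 1.61. The Rtl1 group gave a ratio of 1.46. The 7 distal names gave 1.96 with miR-410 and 1.47 without it, so apart from miR-410 the sums of both groups had nearly the same ratio. These sums are descriptions and were not tested. Single names varied more than these sums, within the members and outside them. Over all strands the ratio was 1.32 for miR-136 and 2.89 for miR-410. It lay between 1.45 and 1.48 for miR-127, miR-434, miR-411 and miR-541. Outside the members, epicardial and endocardial means were 26.5 and 12.6 RPMM for miR-409 and 18.8 and 18.6 for miR-381.

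The members with few reads did not allow an order of layers. miR-487b had 7 reads in epicardium, 7 in midmyocardium and 6 in endocardium, and was read in all 9 libraries. miR-379 had 5, 4 and 4 reads, and miR-382 had 6, 3 and 4. miR-495, a miRNA known for its effect on cardiomyocyte proliferation, had 0 reads in epicardium, 1 in midmyocardium and 2 in endocardium. Its 0 in epicardium allows up to 3 reads in each library.

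No member differed between the hearts past the threshold. Averaged over the 3 layers, miR-127 was 257, 278 and 307 RPMM in hearts 6, 7 and 8. miR-410 was 32.4, 46.5 and 34.9 RPMM in the same order, with an adjusted p of 0.638 over hearts by limma's F test. miR-541 had the smallest p of the 6, at 6.60, 11.6 and 12.8 RPMM (unadjusted p = 0.0437, adjusted p = 0.424 by limma). Over all features 0 of 573 (0%) passed by limma and 61 (10.6%) had an unadjusted p under 0.05, while edgeR called 13 and DESeq2 23, none of them a member.

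Other miRNAs of the locus were taken from a list of 43 names, in entries of any species. Of these, 31 had reads, 560 reads in all, and 10 had at least 10 reads. The mean was higher in epicardium than in endocardium for 7 of these 10, and lower for miR-667, miR-431 and miR-329. Of the 573 features, 51.8% had a higher epicardial mean. The 2 shares have different bases, since these 10 names were counted over all strands and libraries together. miR-409, which lies between miR-541 and miR-410, was read at 23.4, 26.0 and 30.1 RPMM in epicardium of hearts 6, 7 and 8, at 21.1, 15.9 and 10.4 in midmyocardium and at 11.2, 14.7 and 11.8 in endocardium. Its epicardial libraries lay above all 6 others, the lowest at 23.4 RPMM against 21.1 in midmyocardium of heart 6. Of all features, 3.84% had epicardium above endocardium without overlap and 5.58% above midmyocardium. The share above both layers was not counted. The endocardial difference of the reads filed under its precursor, which were 135 of 137, was -1.05 on the log2 scale (SE 0.31, adjusted p = 0.996 by limma). Its 2 most frequent sequences were both filed as precursor and differ in their start by 1 nt, which gives them different seeds. They are shown with the seed in capitals.
miR-409 with 67 reads: gAATGTTGctcggtgaacccct
miR-409 with 27 reads: cGAATGTTgctcggtgaacccct
miR-381 had 135 reads and was higher in epicardium than in endocardium in 1 of 3 hearts. It measured 18.8 ± 3.23 RPMM in epicardium, 13.3 ± 2.79 in midmyocardium and 18.6 ± 2.45 in endocardium. For its rat mature reads the log2 difference of endocardium from epicardium was -0.08 (SE 0.27, adjusted p = 0.996 by limma). miR-341, with 52 reads of all strands, ran from 5.32 to 12.9 RPMM in epicardium and from 2.63 to 7.70 in endocardium. It was higher in epicardium in each heart. The fit covers only its 42 reads filed as mature, with a log2 difference of -1.27 (SE 0.69, adjusted p = 0.996 by limma). The precursor reads of miR-300 gave -0.66 (SE 0.42, adjusted p = 0.996 by limma). None of the 13317 unannotated sequences matched any of 41 hairpins of the locus with up to 2 nts free at the 3′ end. This search could find little. The authors had already filed reads that match a known hairpin as precursor, and listed unannotated sequences only with a minimum of 10 reads.

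The profile of miR-410 over the 9 libraries was compared with those of 439 other features having at least 10 reads per library on average. Likeness was the root mean square distance between log2(RPMM + 1) profiles after each was centred on its own mean. The 5 nearest were miR-132 at 0.54, miR-9 at 0.54, reads filed under the mouse precursor of miR-1928 at 0.57, miR-127 at 0.58 and miR-182 at 0.58, against a median of 0.90 over all 439. miR-411 followed in 6th place at 0.58, and miR-434 was 25th at 0.69. By this distance, miR-127 and miR-411 were thus among the nearest profiles but did not lead them. miR-541 and miR-136* fell below this filter and were not ranked. The profile includes the epicardial and endocardial libraries on which miR-410 was chosen. Nearness to it therefore partly restates the higher epicardial levels given above. The order depends on the measure. By correlation with miR-410, miR-127 was the highest of the 5 at 0.79, against 0.75 for miR-132 and 0.73 for miR-9. miR-132, a miRNA induced by neuronal activity, measured 35.0 ± 4.27 RPMM in epicardium, 22.2 ± 6.59 in midmyocardium and 21.4 ± 7.64 in endocardium (SD, n = 3). miR-9, a miRNA of neural progenitors and neurons, measured 156 ± 41.6, 100.2 ± 44.7 and 98.8 ± 41.3 RPMM. The profiles share 9 libraries and their depths, and the distances were not tested.

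Since the locus is well known from the brain, neural miRNAs are given beside it. The neural list (miR-9, miR-124, miR-219 and miR-338) summed to 255 to 352 RPMM in epicardium, 180 to 300 in midmyocardium and 148 to 238 in endocardium, and was higher in epicardium than in endocardium in each of the 3 hearts, with a ratio of means of 1.57. All 4 names had reads, but the sum was carried by miR-9 with 1001 reads and miR-338 with 913. Both of these were higher in epicardium than in endocardium in each of the 3 hearts. miR-124, which defines neurons, had 1 read in the 9 libraries. miR-219, with 25 reads, went the other way, with means of 2.37 RPMM in epicardium and 4.12 in endocardium. The ratio of epicardial to endocardial mean was 1.02 for the cardiomyocyte list, 1.06 for the endothelial miR-126 and 0.903 for the fibroblast list. It was 1.01 for smooth muscle, 0.920 for leukocytes and 0.766 for red cells. Means in midmyocardium and epicardium were 119000 and 88364.5 RPMM for the cardiomyocyte list and 2789 and 2029 for the fibroblast list. They were 14252 and 13876 for miR-126 and 9420 and 9439 for leukocytes. For smooth muscle they were 103236 and 118842, and for red cells 118984 and 134634. The red cell sum was carried by miR-486 with 1132709 reads, against 4957 of miR-451, and the paper cites its enrichment in heart and skeletal muscle. Names within a list could differ. From epicardium to endocardium, miR-208b went from 1687 to 2626 RPMM, miR-145 from 1917 to 2546 and the leukocyte miR-142 from 616 to 487. The part of any of these cell types in the levels of the locus was not tested.

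The strand and the ends of the reads were then examined, which the choice of miR-410 had not used. All 4112 reads could be placed on the hairpins. The 3p arm held 99.6% of 2225 miR-127 reads, 98.7% of 1122 miR-434 reads and all 305 of miR-410, while miR-541 gave 108 reads of the 5p arm and none of the 3p. miR-411 was also read mainly from the 5p arm, with 5.75% of its 226 reads on the 3p (95% Wilson interval 3.39 to 9.59%). For miR-136 the strand that the annotation marks with * was the main product, with 88.3% of 77 reads on the 3p arm (interval 79.3 to 93.7%). These intervals cover counting error only, since the reads carry no molecular identifiers.

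miR-410 and miR-434 were read mostly as annotated. The exact mature sequence made up 88.2% of 305 reads of the miR-410 arm (interval 84.1 to 91.4%) and 88.0% of 1107 reads of the miR-434 arm (85.9 to 89.8%). miR-541 was more ragged at its 3′ end: 32.4% of its 108 reads were exact, and 51.9% (42.5 to 61.0%) had the annotated start and a shorter 3′ end that still matched the hairpin. Its start was the annotated one in 99.1% of reads, so the seed was kept.

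miR-127 varied most by additions. Of 2217 reads of its arm, 42.8% were exact (interval 40.8 to 44.9%), 23.3% were shorter at the 3′ end, and 31.6% (29.7 to 33.6%) carried 1 to 3 nts at the 3′ end that the hairpin does not encode. Of 701 such reads, 674 had only A or T added. The start was the annotated one in 98.1% of reads, so these variants differ at the end away from the seed. The most frequent are shown, with the unencoded nts in capitals.
miR-127 with 183 reads: tcggatccgtctgagcttggctT
miR-127 with 84 reads: tcggatccgtctgagcttggctAT
miR-127 with 71 reads: tcggatccgtctgagcttggcA

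Only miR-127 and miR-434 had at least 10 reads in every library, so their exact mature share was compared between layers, over all reads of the name. For miR-127 it was 44.4, 43.1 and 43.7% in epicardium of hearts 6, 7 and 8, 38.5, 38.4 and 39.0% in midmyocardium and 46.5, 44.5 and 41.3% in endocardium. Endocardium and epicardium overlapped, with a difference of 0.374 percentage points (exact two-sided permutation test, p = 0.8). Midmyocardium lay below every other library, at 38.6% ± 0.322 against 43.7% ± 0.651 in epicardium, a pattern singled out after its values were seen. Counting error was larger than this spread: in the arm's reads pooled over hearts, the Wilson interval was 34.6 to 43.1% in midmyocardium and 40.8 to 47.0% in epicardium. For miR-434 the share was 87.3% ± 2.16 in epicardium, 84.7% ± 2.86 in midmyocardium and 85.3% ± 3.91 in endocardium, and endocardium differed from epicardium by -2.01 percentage points (exact two-sided permutation test, p = 0.5). With 3 libraries against 3 the smallest p this test can give is 0.1.

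miR-411 differed from the rest at its 5′ end. Of 213 reads of its 5p arm, 123 or 57.7% (interval 51.0 to 64.2%) started 1 nt upstream of the annotated start, and 36.2% (30.0 to 42.8%) were the exact mature sequence. The share with the upstream start ran from 52.6 to 70.0% in epicardium, from 50.0 to 57.9% in midmyocardium and from 43.5 to 66.7% in endocardium, so the layers overlapped. With as few as 6 reads in a library it was not tested. The shift moves the seed by 1 nt, as the most frequent sequence and the annotated one show, with seeds in capitals.
miR-411-5p with the upstream start, 92 reads: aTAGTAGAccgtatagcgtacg
miR-411-5p as annotated, 77 reads: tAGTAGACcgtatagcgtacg
The first had 44 reads in epicardium, 20 in midmyocardium and 28 in endocardium, and the second 33, 18 and 26.

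**Figure D4:**
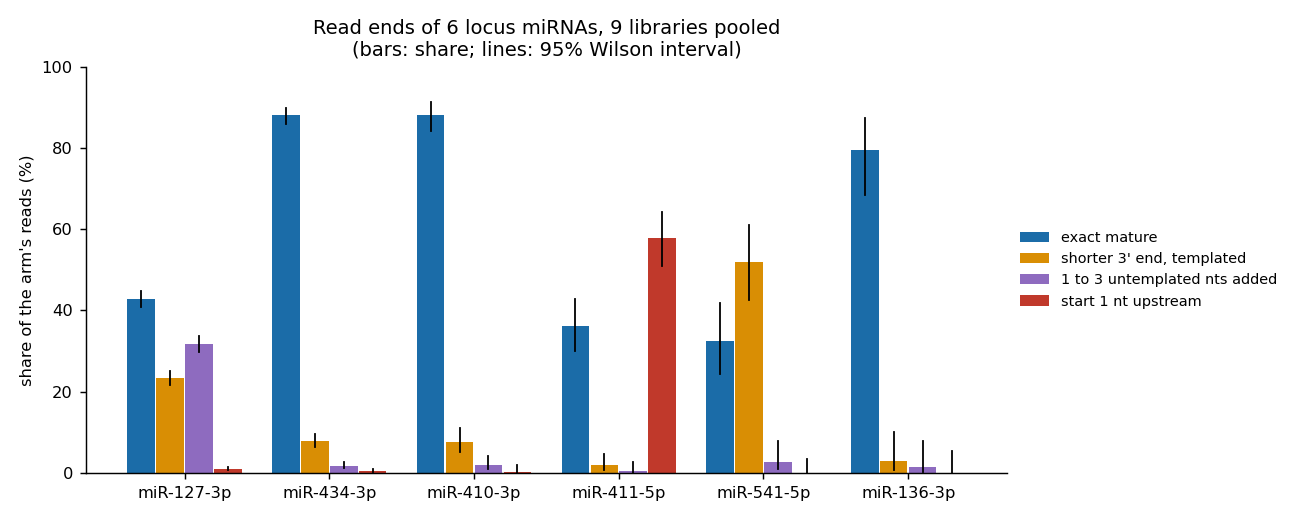
Share of the reads of each member's main arm, in percent over the 9 libraries pooled, that were the exact mature sequence, shorter at the 3′ end, extended by 1 to 3 unencoded nts, or started 1 nt upstream, with 95% Wilson intervals as black lines. miR-410-3p and miR-434-3p are mostly exact at 88.2% and 88.0%, unencoded nts stand out in miR-127-3p at 31.6% and the upstream start in miR-411-5p at 57.7%.

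Among sequences with at least 8 reads, only 1 seed was shared between members. All 10 reads of the 3p arm of miR-379 started 1 nt inside the annotated start, and so carried the seed of miR-411-3p, whose hairpin lies next to that of miR-379. The annotated miR-379-3p at chr6:134543496-134543517 has another seed. The sequences below show this, with seeds in capitals.
miR-379-3p as annotated: cTATGTAAcatggtccactaac
miR-379-3p as read most often: tATGTAACatggtccactaac
miR-411-3p as annotated: tATGTAACacggtccactaa
With 10 reads of the miR-379 3p arm and 13 of the miR-411 3p arm in 9 libraries, no layer order could be read for this shared seed.

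Away from the last 3 nts, only 1 substitution in the members was seen in 4 reads or more. It was A5G in miR-411-5p, counted from 1 at the annotated 5′ end, in 5 of 213 reads or 2.35% (interval 1.01 to 5.38%). These 5 reads came from 5 libraries, 2 epicardial, 1 midmyocardial and 2 endocardial, and the position lies within the seed. Among the substitutions seen at such positions with at least 100 reads of coverage, the median share was 0.0903%. Most of these were in miR-127 and miR-434, which have far more reads, so this median is not a background for miR-411. At a coverage of 213 a single read is already 0.469%. The next highest substitution in miR-411-5p away from the last 3 nts was A14C, with 2 reads or 0.939%. At this depth a difference of A5G between layers was not detectable.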

How the data were processed

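Small RNA of 3 layers of 3 rat hearts was sequenced from TruSeq libraries, and reads were trimmed and annotated by the authors in CLC Genomics Workbench against miRBase, with up to 2 mismatches and 3 nts added or removed at either end. The authors deposited each annotated sequence as RPM over the annotated reads of its library (RPMM). All of these values (100% within 0.001) were whole numbers of reads, which were recovered. They also deposited a grouped table of signal per miRNA, used here only as an alternative, and read counts of unannotated sequences.

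The members, lists and tests were chosen with earlier results of these data known. Features were names by strand that reached 10 reads in any 1 library. Layers were compared by limma (lmFit, eBayes) on log2(RPMM + 1) over 9 libraries with Benjamini-Hochberg adjustment over all 573 features and a threshold of 0.05, and hearts by limma's F test with layer as covariate; both were tested on simulated data. A pseudocount of 1 understates changes of low features. Named were the 10 members, the other locus miRNAs, the 5 profiles nearest miR-410 and any feature called in a layer comparison. Reads were placed on RefSeq hairpins by their first 15 nts with up to 2 mismatches, and shares carry 95% Wilson intervals. With 283991 to 1428025 annotated reads, 3 reads are worth 2.10 to 10.6 RPMM.

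Heart numbers pair the libraries because each heart gave all 3 layers. Deviations from layer means correlated at -0.14 to 0.39 within hearts (mean 0.15) and at a mean of -0.07 between hearts. No pair of libraries agreed within sampling noise. The closest pair was epicardium and midmyocardium of heart 6, at a chi-square per degree of freedom of 8.88 against a median of 117 over pairs. That midmyocardium is the shallowest library. Alternatives covered pseudocounts, filters, TMM normalization, DESeq2's size factors, edgeR, DESeq2, Baggerley's test, exact mature sequences, the grouped table, heart as replicate block, the 2 layers alone, totals, and each library and heart left out. R 4.3.3, limma 3.58.1, edgeR 4.0.16 and DESeq2 1.42.0 were used with Python, pandas, scipy and matplotlib.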

Additional observations from a re-analysis of the deposited data

How the results depend on the processing

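With heart number as replicate block, limma called 0 features in each of the 3 layer comparisons, as without it, and the block changed no call of a member. Baggerley's test called 1 feature for endocardium against epicardium, miR-378, which is not a member. The paper's tables, which mark P values by this test, list miR-410 and miR-411 as higher in epicardium. They rest on the paper's own groupings of reads. The re-run here used other features and adjusted over all of them, and gave miR-411 an adjusted p of 0.986 by Baggerley's test. It is therefore not a like comparison with the paper's marks. With each library or heart left out in turn the calls ranged from 0 to 1 for midmyocardium against endocardium, the 1 being reads filed under the mouse precursor of miR-3470a, called without endocardium of heart 7 and not a member. For the hearts, where limma called 0, other settings called 14 (pseudocount of 10 RPMM), 4 (no filter beyond 1 read), 10 (mean of at least 10 reads per library), 3 (TMM normalization), 3 (DESeq2 size factors), 13 (edgeR), 23 (DESeq2) and 1 (the grouped table), and leaving out libraries or hearts gave 0 to 6, the 6 without midmyocardium of heart 8. The cause was not tested. Over 371 refits of the 5 members other than miR-410 between layers none passed, the lowest adjusted p being 0.592. Endocardium minus epicardium stayed negative for these 5 in every refit. miR-136* changed sign between midmyocardium and epicardium in some refits (-0.34 to 0.20), and so did each member but miR-136* between midmyocardium and endocardium. The ratio of epicardial to endocardial mean of miR-410 ran from 2.62 to 3.50 with a heart left out. The same ratio of the sum over the 10 names was 1.45 on rat reads as total, and ran from 1.47 to 1.61 with a heart left out. The difference in exact mature share of miR-127 ranged from -0.489 to 1.78 percentage points with a heart left out, and that of miR-434 from -5.38 without heart 7 to -0.211 without heart 6. Low depth limits miR-487b, miR-379, miR-382 and miR-495, whose layers could not be ordered, and the 2 layers alone with the block, an alternative chosen after seeing the data, called 0 as well.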
